A study of Mus musculus with 12 samples.

Results

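The genes described here are those carried by the mitochondrial genome itself, measured in mouse pancreatic islets. They were chosen by name: every row of the full count table whose symbol starts with mt- was taken, which gave 37 of 55536 genes. These are 13 protein-coding genes, 2 ribosomal RNA (rRNA) genes and 22 transfer RNA (tRNA) genes. Of the 37, 20 had enough counts to be tested, namely the 13 protein-coding genes, both rRNA genes and 5 of the tRNA genes. The other 17 tRNA genes are given by their counts only.

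Mitochondria keep a small circular genome of their own. It is transcribed from both strands into long precursors, and most mRNAs and rRNAs in these precursors are separated by tRNAs, at which the RNA is cut. The 13 mRNAs code for subunits of complexes I, III, IV and V, the machinery of oxidative phosphorylation, and all other subunits of these complexes are coded in the nucleus. In pancreatic beta cells this machinery makes the ATP that couples blood glucose to insulin release.

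The study compared islets with and without the phosphatase gene Ptpn2 in their beta cells, and with and without inflammatory cytokines. The 4 groups, of 3 libraries each, were islets titled PTPN2 -/- and called Ptpn2-bKO in the protocol with cytokines, the same genotype untreated, control islets (titled PTPN2 +/+, genotype label PTPN2 fl/fl) with cytokines, and control islets untreated. The cytokines were TNF-alpha, IL-1beta and IFN-gamma, given together for 24 h in culture. All mice were 16 weeks old and of a mixed strain background of C57BL/6J. Islets came from 3 mice of each genotype, and which mouse gave which library is not stated, so p-values measure only the spread between these libraries. The sources used here do not give the promoter that drives Cre, nor whether poly(A) RNA was selected from the total RNA.

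Library totals lay between 47064061 and 107515565 counts. Levels are given as CPM, counts per 1e6 counts of the library after TMM scaling, and every adjusted p comes from edgeR's quasi-likelihood test and was adjusted by Benjamini-Hochberg over all 19800 tested genes. Counts of Ptpn2 were no lower under the bKO label. They stood at 84.2 to 110.5 CPM in labelled-bKO and 78.3 to 90.4 CPM in control libraries with cytokines, and at 33.8 to 36.7 CPM in labelled-bKO and 30.3 to 31.5 CPM in control libraries without them. These counts span the whole gene and do not check the deleted part, and the genotype is therefore given as a label throughout. Islet identity was checked with 9 beta cell markers, none of which was at 0 in any group, with summed levels between 90079 and 177637 CPM. For the mitochondrial genes, 2 libraries stood apart from the others of their group, labelled-bKO untreated replicate 1 and labelled-bKO cytokines replicate 2. They are named beside many of the main values they touch, and several of these are also given without both.

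The sequence of these genes bears on how they can be counted, because pieces of mitochondrial DNA were long ago copied into the nuclear genome. In the GENCODE M21 annotation of GRCm38, 7 neighbouring pseudogenes on the minus strand of chromosome 1, between positions 24611535 and 24616197, copy the stretch from the end of mt-Co1 to the front part of mt-Nd4. The copies of mt-Co2 (Gm28661), mt-Atp6 (Gm10925), mt-Co3 (Gm28437) and mt-Nd4l (Gm10222) are identical to the mitochondrial gene over 681, 678, 783 and 294 aligned bases. Gm28439 is identical to the first 876 bases of mt-Nd4. Gm28438 differs from mt-Nd3 at 1 of 345 aligned bases, and Gm29216 differs from the last 483 bases of mt-Co1 at 1 base. The 3 pairs below are printed to show how little a read could tell them apart. Each sequence runs in the direction of transcription, positions are counted from 1 at the start of the mitochondrial gene, and capitals mark a base that differs within the pair (T3C in mt-Nd3 and A1066T in mt-Co1). The first pair, from the start of mt-Co2 at chrM:7013-7072 (plus strand) and of its copy at chr1:24615506-24615565 (minus strand), has no difference. The second is from the start of mt-Nd3 at chrM:9459-9518 (plus strand) and of its copy at chr1:24613060-24613119 (minus strand). The third is from inside mt-Co1 at chrM:6390-6449 (plus strand) and near the start of its copy at chr1:24616129-24616188 (minus strand).
mt-Co2: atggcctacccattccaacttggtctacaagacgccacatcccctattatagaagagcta
Gm28661: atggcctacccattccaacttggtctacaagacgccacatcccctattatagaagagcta
mt-Nd3: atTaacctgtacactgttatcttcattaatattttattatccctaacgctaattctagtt
Gm28438: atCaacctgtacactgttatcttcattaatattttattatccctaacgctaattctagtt
mt-Co1: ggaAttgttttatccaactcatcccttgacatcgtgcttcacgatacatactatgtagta
Gm29216: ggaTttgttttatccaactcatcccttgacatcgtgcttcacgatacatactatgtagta

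Each gene was cut into all overlapping windows of 50 bases, and the share of windows found in another annotated transcript was taken as a measure of this ambiguity. That share was 100% for mt-Co2, 99.9% for mt-Co3, 99.5% for mt-Atp6, 98.8% for mt-Nd4l and 98.0% for mt-Nd3. It was 62.2% for mt-Nd4 and 51.1% for mt-Co1, and it was 8.19% for mt-Nd2 and 7.61% for mt-Nd5. For mt-Rnr2 it was 1.04%, and for mt-Nd1, mt-Nd6, mt-Cytb, mt-Rnr1, mt-Atp8 and all 22 tRNA genes it was 0. Only annotated transcripts were searched, and not the nuclear sequence between the annotated copies. For mt-Atp8 and the tRNA genes between mt-Co1 and mt-Nd4, a share of 0 therefore does not show that they have no copy.

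Per length, the levels of the mRNAs fell far apart. In untreated control islets, mt-Co1, the catalytic subunit of cytochrome c oxidase, had 2899 ± 208 CPM per kb (SD, n = 3). Next came mt-Cytb, the mitochondrially coded subunit of complex III, with 2748 ± 248 CPM per kb, and mt-Nd1, a membrane subunit of complex I, with 2551 ± 121 CPM per kb. The libraries of mt-Co1 and mt-Cytb overlapped, and so did those of mt-Cytb and mt-Nd1. The complex I subunits mt-Nd5 with 1649 ± 165 CPM per kb, mt-Nd2 with 1414 ± 108 CPM per kb and mt-Nd4 with 793 ± 58.9 CPM per kb followed. These values divide by the whole gene length. How reads of shared windows were counted is not given, and if they were dropped, mt-Co1 and mt-Nd4 stand too low here. The order among these 6 is therefore one of counts only. The counts of the rRNAs of the mitochondrial ribosome were lower, at 179 ± 11.8 CPM per kb for mt-Rnr2, its large-subunit RNA, and 128 ± 5.22 CPM per kb for mt-Rnr1, its small-subunit RNA. Since the selection of RNA for the libraries is not given, this does not show that the rRNAs were scarcer than the mRNAs in the islets. At the foot of the order stood mt-Nd6 with 48.5 ± 8.62, mt-Co2 with 19.7 ± 1.67, mt-Atp6 with 19.3 ± 2.94, mt-Co3 with 12.99 ± 1.41, mt-Atp8 with 8.60 ± 1.20, mt-Nd4l with 6.63 ± 0.941 and mt-Nd3 with 3.84 ± 0.789 CPM per kb. The 5 mRNAs with nearly all windows shared were thus at most 19.7 CPM per kb, while mt-Co1 and mt-Nd4, which keep a unique part, were among the 6 highest. mt-Nd6 is an exception to this order, since it shares no window and was low as well. mt-Atp8 was low too and shares no window with an annotated transcript. Whether it has a copy between the annotated ones was not searched. mt-Nd6 is the single mRNA on the minus strand, and mt-Atp8 overlaps mt-Atp6 by 43 bases. For mt-Co2, mt-Co3, mt-Atp6, mt-Nd3 and mt-Nd4l the counts are therefore no measure of the level of the mRNA.

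**Figure D1:**
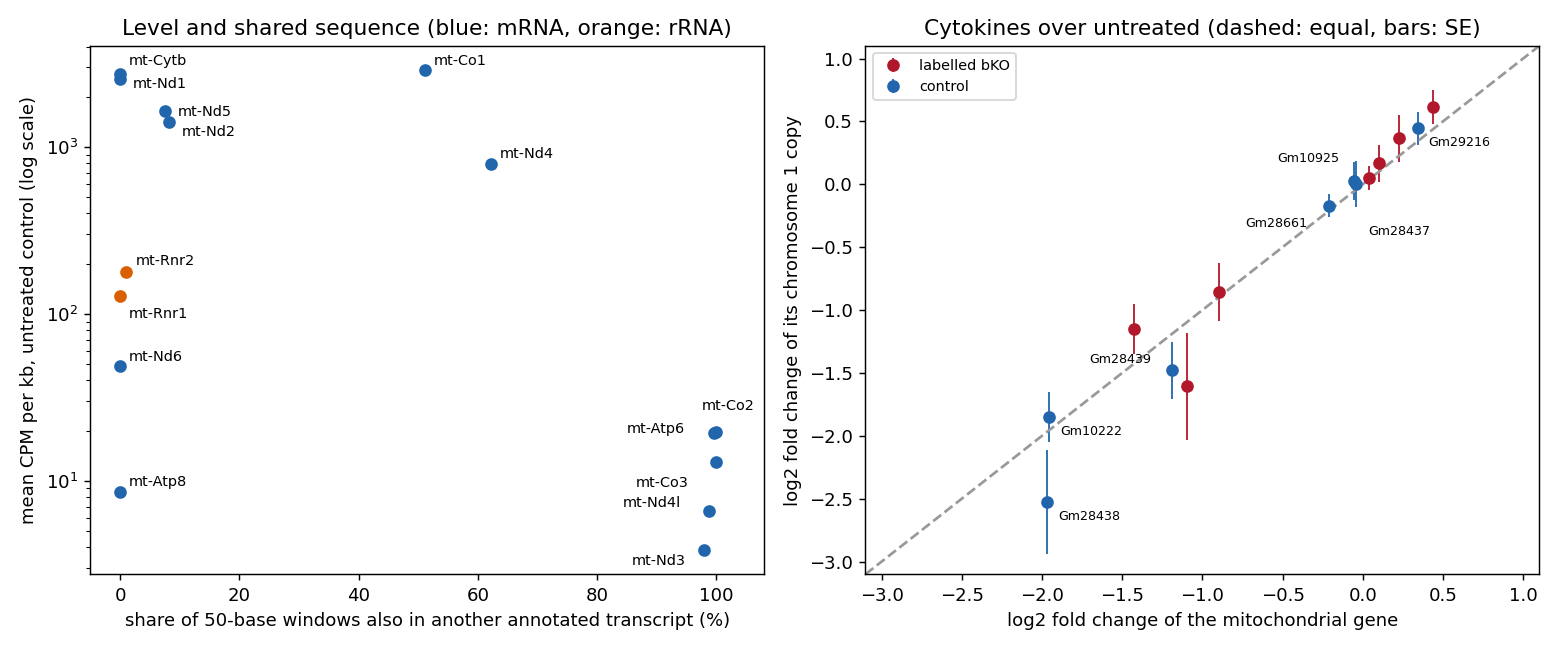
Left: mean level in the 3 untreated control libraries (CPM per kb, log scale) against the share of a gene's 50-base windows that also occur in another annotated transcript (%), 1 dot per mRNA (blue) or rRNA (orange); the 5 mRNAs at 98.0% or more stand at 19.7 CPM per kb or below. Right: log2 fold change, cytokines over untreated, of each of the 7 chromosome 1 copies with its standard error against that of its mitochondrial gene, in labelled-bKO (red) and control islets (blue); the dots lie near the dashed line of equal change. Reads of a shared stretch may be counted for either, so this does not show a response of the copies themselves.

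The copies had counts of the same order as those of the genes they copy where nearly the whole gene is shared. Over the 12 libraries the count of Gm28661 was 102% to 124% of that of mt-Co2, and the count of Gm10222 was 86.0% to 156% of that of mt-Nd4l. Gm10925 had 81.4% to 115% of the count of mt-Atp6, and Gm28437 had 72.5% to 92.8% of that of mt-Co3. Gm28438, with 1 differing base, had 30.3% to 82.0% of the count of mt-Nd3. The count of Gm29216 was 0.136% to 0.177% of that of mt-Co1. The count of mt-Co1 also takes in its unique part, so this ratio cannot be set beside the others. Each copy that passed the test with cytokines changed in the direction of its mitochondrial gene. A read of a shared stretch may be counted for either, so this does not show that the copies themselves responded. In labelled-bKO islets Gm29216 rose by 0.61 on the log2 scale (SE 0.132, adjusted p = 0.00171), as mt-Co1 did, while Gm10222, Gm28439 and Gm28438 fell, with log2 fold changes of -1.15, -0.86 and -1.61. In control islets Gm29216 rose by 0.44 (adjusted p = 0.0116) and Gm10222, Gm28439 and Gm28438 fell, with log2 fold changes of -1.85, -1.48 and -2.52. The copies of mt-Co2, mt-Atp6 and mt-Co3 did not pass the test in either genotype. Of further nuclear copies in the table, Gm13340 on chromosome 2, a copy of mt-Co1, rose by 0.52 in labelled-bKO islets (adjusted p = 0.000477) and had a log2 fold change of 0.21 in control islets (adjusted p = 0.0632). Gm13339, a chromosome 2 copy of mt-Nd2, and Gm4076, a chromosome 13 copy of mt-Nd5, fell in control islets, with log2 fold changes of -1.75 and -0.83. Gm13341 and Gm11407 did not pass the test in either genotype, and Gm11512 and Gm20594 had at most 7 and 12 counts in any library.

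With cytokines, the complex I genes mt-Nd1, mt-Nd2, mt-Nd4, mt-Nd5 and mt-Nd6 and the complex III gene mt-Cytb were lower and mt-Co1 and the rRNAs were higher in islets of both genotypes, though mt-Co1 and mt-Rnr2 were not called with scaling by library totals alone. In labelled-bKO islets 10 of the 20 tested genes were lower and 3 higher at an adjusted p under 0.05 (edgeR), where 62.4% of all tested genes were called, 33.6% lower and 28.8% higher. In control islets it was also 10 lower and 3 higher, where 60.6% of all tested genes were called, 33.9% lower and 26.8% higher. In labelled-bKO islets all libraries with cytokines were below all untreated ones for 9 of the 20 genes and above them for 3, where 35.3% and 29.8% of all tested genes were so placed. In control islets this held for 12 and 3 of the 20, where the shares of all tested genes were 40% and 30.5%. The median log2 fold change of the 20 was -0.92 in labelled-bKO and -1.02 in control islets, against -0.06 and -0.10 over all tested genes. Over the 14 members above 1 CPM it was -0.33 and -0.57. The 10 lower genes include mt-Nd3 and mt-Nd4l, whose counts cannot be told from those of their copies, and in each genotype 1 tRNA gene that passed the filter on low counts only through untreated libraries (mt-Tl1 in labelled-bKO and mt-Tq in control islets), so these counts and medians are a description. The 13 mRNAs and 2 rRNAs reached the filter's level in 5 or 6 of the 6 untreated and in all 6 treated libraries. In whole islets, fewer cells of a type and less RNA per cell cannot be told apart.

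**Figure D2:**
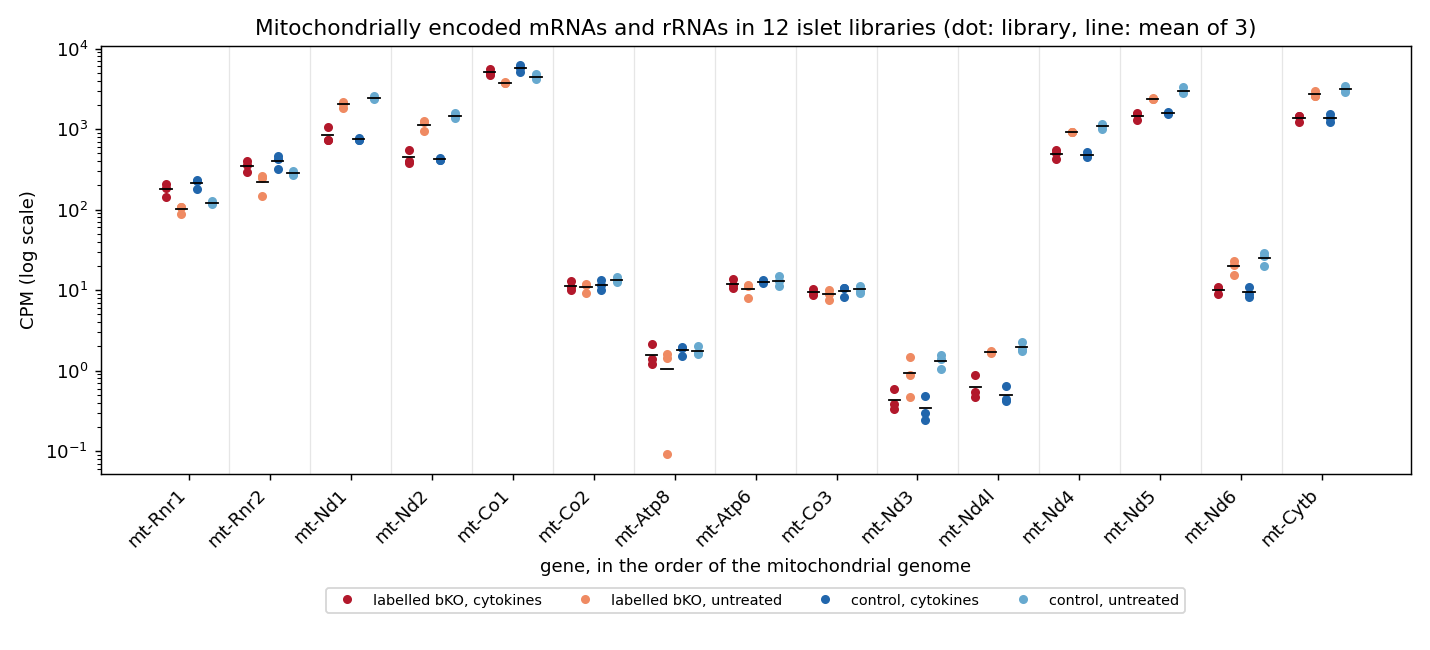
CPM (log scale) of the 13 mRNAs and 2 rRNAs in the order of the mitochondrial genome; each dot is 1 of 12 libraries and each line the mean of 3. Within each genotype mt-Co1 is higher (not called with scaling by library totals alone) and mt-Nd1, mt-Nd2, mt-Nd4, mt-Nd5 and mt-Cytb are lower in all libraries with cytokines than in all without them, and the mt-Atp8 dot far below the others is labelled-bKO untreated replicate 1.

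Of the 7 mitochondrially coded subunits of complex I, the NADH dehydrogenase that takes electrons from NADH, mt-Nd1, mt-Nd2, mt-Nd4, mt-Nd5 and mt-Nd6 fell in both genotypes. The counts of mt-Nd3 and mt-Nd4l were lower as well, but these are counts of a sequence that a nuclear copy shares. mt-Nd1 stood at 735, 1077 and 734 CPM in labelled-bKO islets with cytokines, against 1855, 2058 and 2161 CPM in untreated ones. It stood at 783, 731 and 724 CPM in control islets with cytokines, against 2568, 2415 and 2342 CPM in untreated ones. The treated and untreated libraries did not overlap, and among the treated ones labelled-bKO replicate 2 was the highest. This was 2.39-fold lower in labelled-bKO (log2 fold change -1.25, SE 0.138, adjusted p = 1.13e-05) and 3.27-fold lower in control islets (-1.71, SE 0.14, adjusted p = 1.2e-06).

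mt-Nd2, the next mRNA along the genome, moved in the same way. It had 403, 554 and 376 CPM in labelled-bKO islets with cytokines, against 945.5, 1212 and 1261 CPM without them, and 433, 410.1 and 418 CPM in control islets with cytokines, against 1591, 1436 and 1375 CPM without them. Labelled-bKO replicate 2 was again the highest treated library. The log2 fold change was -1.36 (SE 0.149, adjusted p = 1.08e-05) in labelled-bKO and -1.80 (SE 0.15, adjusted p = 1.44e-06) in control islets. Without the 2 libraries that stood apart it was -1.59 in labelled-bKO islets, and that of mt-Nd1 was -1.45.

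mt-Nd4 and mt-Nd5, the subunits at the far end of the membrane arm, fell by less. mt-Nd5 averaged 1469 ± 147 CPM with and 2398 ± 55.1 CPM without cytokines in labelled-bKO islets (SD, n = 3 each), a log2 fold change of -0.71 (SE 0.0966, adjusted p = 6.26e-05). In control islets it averaged 1583 ± 39.8 CPM with and 3007 ± 300.2 CPM without cytokines, a log2 fold change of -0.93 (SE 0.0969, adjusted p = 8.61e-06). mt-Nd4 had log2 fold changes of -0.90 (adjusted p = 1.22e-05) and -1.19 (adjusted p = 1.57e-06) in labelled-bKO and control islets. Its share of shared windows is high. The count of Gm28439 was at most 0.575% of its own, but the count of mt-Nd4 also takes in its unique part. This ratio therefore does not show how reads of the shared stretch were counted.

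mt-Nd6 lies on the other strand from all other mRNAs and shares no window with a nuclear transcript. It had 10.9, 10.6 and 9.01 CPM in labelled-bKO islets with cytokines, against 15.6, 20.3 and 23.1 CPM without them, a log2 fold change of -0.95 (SE 0.172, adjusted p = 0.000514). In control islets it had 10.9, 9.02 and 8.32 CPM with cytokines, against 28.6, 26.9 and 20.1 CPM without them, a log2 fold change of -1.42 (SE 0.172, adjusted p = 2.77e-05). Labelled-bKO untreated replicate 1 was the lowest untreated library, and without it and labelled-bKO cytokines replicate 2 the labelled-bKO value was -1.05. No source used here gives the strand setting of the counting, and reads of mt-Nd6 and of the opposite strand cannot be told apart without it.

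The small subunits mt-Nd3 and mt-Nd4l had low counts, at most 116 and 156 in any library, and share nearly all windows with their copies. mt-Nd4l had log2 fold changes of -1.43 (adjusted p = 0.000412) and -1.95 (adjusted p = 3.92e-05) in labelled-bKO and control islets. Without both libraries that stood apart its labelled-bKO value was -1.70. mt-Nd3 had 14, 33 and 17 counts in labelled-bKO islets with cytokines, against 31, 61 and 95 counts without them, and the groups overlapped. Its log2 fold change there was -1.09 (SE 0.414, adjusted p = 0.0373), and -0.63 (adjusted p = 0.195) without labelled-bKO untreated replicate 3. In control islets it was -1.97 (SE 0.41, adjusted p = 0.00146). With the counts of the copies added to their mitochondrial genes, mt-Nd3 had -1.27 and -2.16 and mt-Nd4l had -1.29 and -1.91 in labelled-bKO and control islets, all past the test.

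mt-Cytb, cytochrome b of complex III, also fell. It had 1459, 1447 and 1219.9 CPM in labelled-bKO islets with cytokines, against 3012, 2591 and 2594 CPM without them. It had 1361, 1533 and 1212 CPM in control islets with cytokines, against 3434, 3132 and 2866 CPM without them. No treated library reached an untreated one, and labelled-bKO replicate 1 was the highest untreated library of its genotype. The fall was 1.99-fold in labelled-bKO (log2 fold change -0.99, SE 0.118, adjusted p = 2.17e-05) and 2.30-fold in control islets (-1.20, SE 0.119, adjusted p = 5.55e-06).

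mt-Co1, which holds the site where complex IV reduces oxygen, rose in both genotypes, but this call was lost in both with scaling by library totals alone. It had 5634, 4989 and 4702 CPM in labelled-bKO islets with cytokines, against 3701, 3759.8 and 3852 CPM without them. It had 5697, 6190.2 and 5154 CPM in control islets with cytokines, against 4815, 4449 and 4173 CPM without them. The groups did not overlap, and the log2 fold change was 0.44 (SE 0.103, adjusted p = 0.00311) in labelled-bKO and 0.34 (SE 0.103, adjusted p = 0.0131) in control islets. With library totals it was 0.21 (adjusted p = 0.057) and 0.11 (adjusted p = 0.276). That scaling moved the median of all genes by -0.23 in both genotypes and the share of called genes that were higher to 31.5% in labelled-bKO and 29.3% in control islets, against 46.2% and 44.1% with TMM. Relative to that shift the change of mt-Co1 was 0.44 and 0.34. In control islets the call was also lost without control untreated replicate 3 (0.29, adjusted p = 0.0568) and without control cytokines replicate 2 (0.28, adjusted p = 0.0529).

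The other mRNAs of complex IV and those of complex V did not pass the test in either genotype with TMM scaling, and in control islets mt-Co2 was lower with library totals alone (-0.44, adjusted p = 0.0108, which is -0.21 relative to the shift of all genes). mt-Co2, which carries the copper site that receives electrons from cytochrome c, averaged 11.3 ± 1.52 CPM with and 10.99 ± 1.58 CPM without cytokines in labelled-bKO islets, and 11.6 ± 1.67 and 13.5 ± 1.14 CPM in control islets with and without them. The log2 fold changes were 0.04 (SE 0.144, adjusted p = 0.833) and -0.21 (SE 0.143, adjusted p = 0.217). For mt-Co3 they were 0.10 (SE 0.146) and -0.06 (SE 0.145), and for mt-Atp6, the proton channel subunit of ATP synthase, 0.22 (SE 0.16) and -0.04 (SE 0.159), in labelled-bKO and control islets. In labelled-bKO islets all 3 values had the other sign with library totals. Relative to the shift of -0.23 in the median of all genes under that scaling they were 0.03, 0.10 and 0.22 for mt-Co2, mt-Co3 and mt-Atp6. With 99.5% or more of their windows shared with other transcripts, these 3 genes do not tell how their mRNAs changed.

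mt-Atp8 shares no window with the annotated copies, though the nuclear sequence between them was not searched, and mt-Atp8 had few counts. It had 91, 76 and 54 counts in labelled-bKO islets with cytokines, against 6, 98 and 103 counts without them. Labelled-bKO untreated replicate 1, with 6 counts, stood far below all other libraries. In the 11 others the count of mt-Atp8 was 11.3% to 15.5% of that of mt-Atp6. The log2 fold change was 0.60 (SE 0.603, adjusted p = 0.407) in labelled-bKO and 0.04 (SE 0.579, adjusted p = 0.96) in control islets. Without both libraries that stood apart it was 0.22 (adjusted p = 0.51) in labelled-bKO islets.

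The counts of both rRNAs rose, those of mt-Rnr2 not with scaling by library totals alone. The selection of RNA for the libraries is not given, so a change in the amount of rRNA and in the part captured cannot be told apart. mt-Rnr1 had 210.3, 142 and 188 CPM in labelled-bKO islets with cytokines, against 87.8, 107.9 and 107.9 CPM without them. It had 231, 227 and 181 CPM in control islets with cytokines, against 128, 119.7 and 118 CPM without them. All treated libraries were above all untreated ones, and the log2 fold change was 0.83 (SE 0.142, adjusted p = 0.000343) in labelled-bKO and 0.81 (SE 0.142, adjusted p = 0.000449) in control islets. The lowest library in each labelled-bKO group was one that stood apart, cytokines replicate 2 and untreated replicate 1, and without both the labelled-bKO value was 0.96.

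mt-Rnr2 had 403, 296 and 354 CPM in labelled-bKO islets with cytokines, against 146, 249 and 258 CPM without them, where replicate 1 was the lowest. In control islets it had 470.1, 420.05 and 322 CPM with cytokines, against 304, 268 and 278 CPM without them. In both genotypes all treated libraries were above all untreated ones. The log2 fold change was 0.69 (SE 0.204, adjusted p = 0.0116) in labelled-bKO and 0.51 (SE 0.204, adjusted p = 0.0464) in control islets. The call of mt-Rnr2 in control islets was lost in 10 of 24 alternative analyses, among them 7 that left out a library (adjusted p between 0.0536 and 0.162). With library totals it was lost in both genotypes (0.45, adjusted p = 0.0564 in labelled-bKO and 0.28, adjusted p = 0.218 in control islets). Without both libraries that stood apart the value was 0.65 (adjusted p = 0.00378) in labelled-bKO and 0.58 (adjusted p = 0.00202) in control islets.

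**Figure D3:**
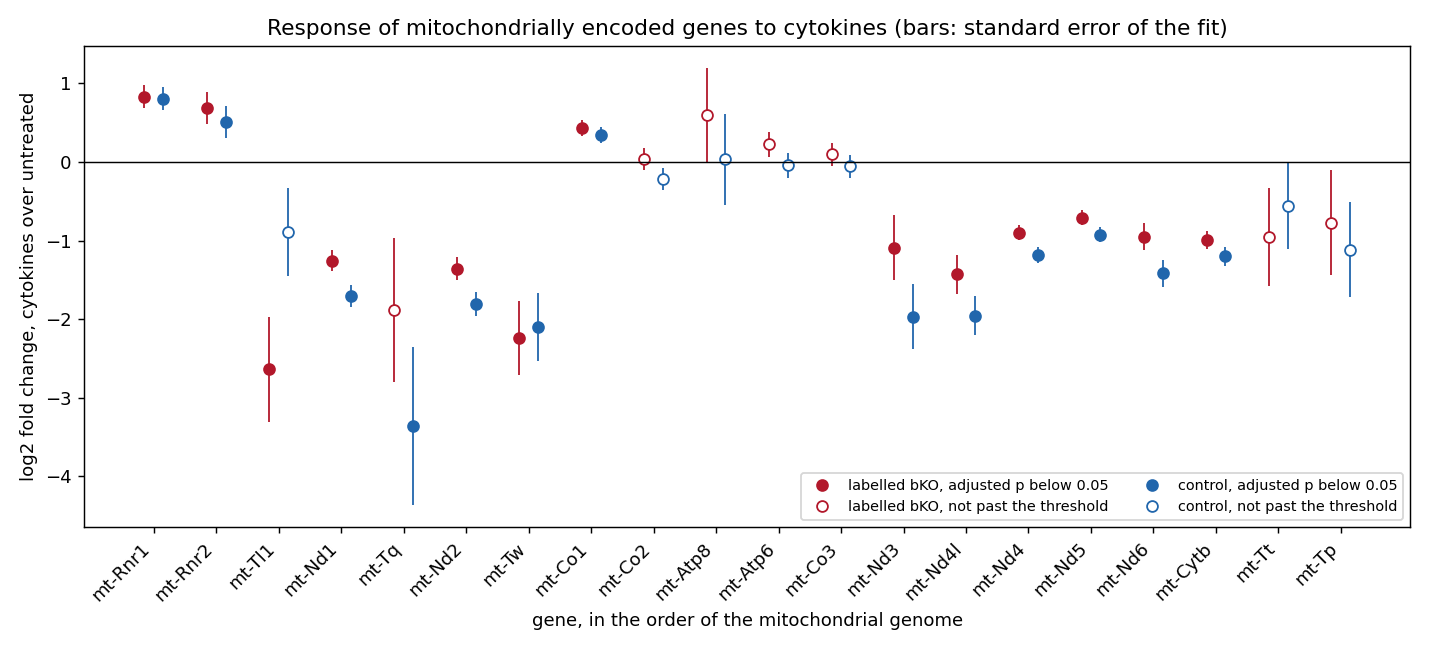
Log2 fold change, cytokines over untreated, of the 20 tested genes in the order of the mitochondrial genome, in labelled-bKO (red) and control islets (blue); bars are standard errors of the edgeR fit, and filled dots have an adjusted p under 0.05. mt-Rnr1, mt-Rnr2 and mt-Co1 are filled above 0 in both genotypes (mt-Rnr2 and mt-Co1 were not called with scaling by library totals alone), and the 7 mt-Nd genes, mt-Cytb and mt-Tw are filled below 0 in both (the counts of mt-Nd3 and mt-Nd4l cannot be told from those of nuclear copies, and mt-Tl1 and mt-Tq passed the filter on low counts only through untreated libraries).

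Genes that rose and genes that fell lay next to each other on the genome. mt-Rnr1 and mt-Rnr2, which were higher with TMM scaling, are followed on the same strand by mt-Nd1 and mt-Nd2, which fell in both genotypes. mt-Co1 comes directly after mt-Nd2 among the mRNAs. Of the 6 mRNAs from mt-Co2 to mt-Nd4l that follow it, only mt-Atp8 shares no window with an annotated copy.

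tRNAs were close to undetected. Together the 22 tRNA genes had 20, 50 and 37 counts in labelled-bKO islets with cytokines, against 102, 159 and 167 counts without them, and 33, 83 and 61 counts in control islets with cytokines, against 205, 156 and 176 counts without them. Per 1e6 counts of the unscaled library this was 0.687 ± 0.234 with and 2.35 ± 0.574 without cytokines in labelled-bKO islets, and 0.807 ± 0.329 with and 2.84 ± 0.553 without them in control islets (SD, n = 3 each). mt-Tf, mt-Tk, mt-Th and mt-Tl2 had 0 counts in all 12 libraries, which allows up to 0.0637 per 1e6 counts in the smallest library, and this limit covers counting error only. The other 13 untested tRNA genes had between 1 and 58 counts over the 12 libraries.

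mt-Tw, the tRNA for tryptophan, had the most counts of them, and it is printed because it lies between mt-Nd2 and the tRNAs ahead of mt-Co1 (chrM:4950-5016, plus strand). The capitals mark the 2 bases at its start that the annotation also gives to mt-Nd2.
mt-Tw: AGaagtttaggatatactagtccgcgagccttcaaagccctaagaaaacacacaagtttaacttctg
It had 8, 12 and 11 counts in labelled-bKO islets with cytokines, against 34, 85 and 87 counts without them. It had 8, 26 and 25 counts in control islets with cytokines, against 99, 63 and 99 counts without them. The log2 fold change was -2.24 (SE 0.469, adjusted p = 0.00143) in labelled-bKO and -2.10 (SE 0.434, adjusted p = 0.0014) in control islets. The lowest untreated library was labelled-bKO replicate 1, and without both libraries that stood apart the labelled-bKO value was -2.49. mt-Tw reached the filter's level, 10 counts at the median library, in 6 untreated and 5 treated libraries. A read that covers both genes at its start may belong to mt-Nd2.

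mt-Tl1, the leucine tRNA between mt-Rnr2 and mt-Nd1, had 0, 3 and 2 counts in labelled-bKO islets with cytokines, against 17, 13 and 15 counts without them. In control islets it had 1, 9 and 7 counts with cytokines, against 9, 9 and 14 counts without them. mt-Tq, the glutamine tRNA, had 3, 0 and 0 counts in control islets with cytokines, against 12, 16 and 6 counts without them. In labelled-bKO islets mt-Tq had 1, 1 and 4 counts with cytokines, against 9, 5 and 18 counts without them. Only untreated libraries brought these genes over the filter, 4 for mt-Tl1 and 3 for mt-Tq, so their lower treated counts follow in part from the choice, and no test of them is given in any comparison. mt-Tt, the threonine tRNA, had log2 fold changes of -0.96 (adjusted p = 0.199) in labelled-bKO and -0.56 (adjusted p = 0.396) in control islets. The labelled-bKO value turns on cytokines replicate 2, without which it was -2.11 (adjusted p = 0.0194). Without both libraries that stood apart it was -2.27 (adjusted p = 0.0189).

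With these changes the make-up of the counts of the mitochondrial genes was different with cytokines. The 7 mRNAs other than mt-Co1, mt-Nd1, mt-Nd2, mt-Nd4, mt-Nd5 and mt-Cytb held 0.331% to 0.496% of the mRNA counts. For mt-Co2, mt-Co3, mt-Atp6, mt-Nd3 and mt-Nd4l, which are among them, the counts do not measure the mRNA. The shares below are therefore shares of counts and not of the RNA in the islets. All 37 genes together held 0.959 ± 0.0862% of the counts with and 1.46 ± 0.0253% without cytokines in labelled-bKO libraries, and 1.00 ± 0.0534% with and 1.73 ± 0.106% without them in control libraries (SD, n = 3 each). The ranges did not overlap within a genotype, and with 3 libraries against 3 an exact permutation test cannot go below 0.10, so none is given for these shares. Of the counts of the 13 mRNAs, mt-Co1 held 54.7%, 48.7% and 53.4% in labelled-bKO libraries with cytokines, against 28.8%, 28.8% and 29.1% without them. It held 54.7%, 56.1% and 54.0% in control libraries with cytokines, against 28.3%, 28.7% and 28.6% without them. The 7 complex I genes held 33.4 ± 3.15% with and 49.9 ± 2.04% without cytokines in labelled-bKO libraries, and 31.5 ± 1.70% with and 51.2 ± 0.392% without them in control libraries. The sum of the rRNA counts was 5.46 ± 1.03% of the mRNA counts with and 2.44 ± 0.536% without cytokines in labelled-bKO libraries, and 5.96 ± 0.739% with and 2.58 ± 0.113% without them in control libraries. Labelled-bKO cytokines replicate 2 had the lowest mt-Co1 share, the highest complex I share (36.9%) and the lowest rRNA ratio (4.28%) of the libraries with cytokines. Labelled-bKO untreated replicate 1 had the lowest complex I share (47.5%) and the lowest rRNA ratio (1.82%) of those without. Such ratios within a library show that the counts of these genes changed unequally, whatever the scaling between libraries.

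The ratio of mt-Co1 to mt-Nd1 counts shows this in each library. It was 7.66, 4.63 and 6.41 in labelled-bKO libraries with cytokines, against 1.99, 1.83 and 1.78 without them. It was 7.28, 8.47 and 7.12 in control libraries with cytokines, against 1.88, 1.84 and 1.78 without them. Among the libraries with cytokines, labelled-bKO replicate 2 had the lowest ratio, and without cytokines the ratios of the genotypes overlapped. By contrast, mt-Nd2 kept close to mt-Nd1, at 0.513 to 0.548 of its counts with and 0.510 to 0.589 without cytokines in labelled-bKO libraries, and at 0.553 to 0.577 with and 0.587 to 0.620 without them in control libraries.

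**Figure D4:**
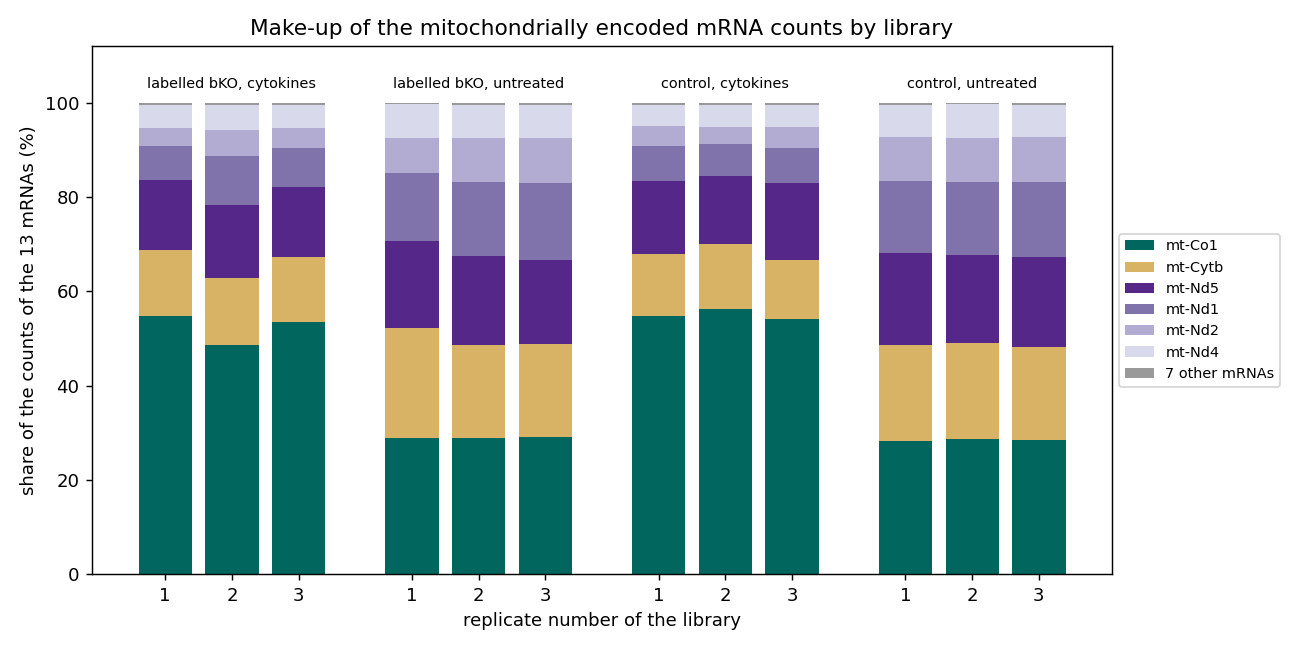
Share (%) of the counts of the 13 mitochondrially coded mRNAs held by the 6 with the most counts and by the 7 others, 1 bar per library. In the 6 libraries with cytokines mt-Co1 holds 48.7% to 56.1%, and in the 6 untreated libraries it holds 28.3% to 29.1%.

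Between genotypes, no tested mitochondrial gene passed the threshold. Without cytokines, 0 of the 20 were called in labelled-bKO against control islets (edgeR; 5 at an unadjusted p under 0.05, and 1099 of all 19800 tested genes), where 0.0758% of all tested genes were called. Of the 20 values 19 were below 0, where 52.4% of all tested genes were, and the 13 mRNAs lay between -0.75 and -0.20 on the log2 scale. The value of -0.75 is that of mt-Atp8, which rests on the 6 counts of labelled-bKO untreated replicate 1, and the 12 other mRNAs lay between -0.50 and -0.20. All 9 acinar cell markers were below 0 in the same comparison, with a median of -1.02, 0 of them called (6 at an unadjusted p under 0.05, edgeR), sums of 2119 to 3474 CPM in labelled-bKO and 4690.1 to 7607 CPM in control islets, and none at 0. Their part in the values of the mitochondrial genes was not tested. The smallest p belonged to mt-Nd5, with 2359, 2461 and 2373 CPM in labelled-bKO and 3349, 2887 and 2786 CPM in control islets (log2 fold change -0.33, SE 0.0962, adjusted p = 0.494). Next were mt-Nd2 (-0.36, adjusted p = 0.788), mt-Nd4 (-0.24, adjusted p = 0.803) and mt-Co1 (-0.25, adjusted p = 0.821). For 8 of the 20 genes all labelled-bKO libraries were below all control libraries, where this held for 7.94% of all tested genes, and for 1 they were above, where this held for 8.24%. The 37 genes held 1.43% to 1.48% of the counts in untreated labelled-bKO and 1.62% to 1.83% in untreated control libraries. Their shares in the same library are not independent of each other.

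With cytokines, 0 of the 20 were called in labelled-bKO against control islets (edgeR; 0 at an unadjusted p under 0.05, and 3530 of all 19800 tested genes), where 0.232% of all tested genes were called, 0.141% higher and 0.0909% lower. For 0 of the 20 the libraries of the genotypes did not overlap, where 10.8% of all tested genes lay wholly below and 6.94% wholly above. The 13 mRNAs lay between -0.19 and 0.37 on the log2 scale. Leaving out mt-Tl1, the smallest p belonged to mt-Rnr1 (-0.24, adjusted p = 0.367), mt-Co1 (-0.15, adjusted p = 0.43) and mt-Nd1 (0.19, adjusted p = 0.467). All 9 beta cell markers were below 0 in this comparison, with a median of -0.68 (7 at an unadjusted p under 0.05, edgeR). Of the 9, 2 were called lower, which is 22.2% of the list. No tested gene of the other marker lists was called. The part of the beta cell markers in the values of the mitochondrial genes was not tested.

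The responses of the genotypes to cytokines were compared as the difference of the log2 fold changes, labelled-bKO minus control. None of the 20 genes passed (edgeR; 1 at an unadjusted p under 0.05), and 0 of all 19800 tested genes did, with 2162 of them at an unadjusted p under 0.05. All 13 mRNAs had a positive difference, between 0.10 and 0.87, where 48.9% of all tested genes had a negative difference, and the standard errors lay between 0.136 and 0.835. Markers of several cell types were on 1 side as well: all 9 acinar (median 1.40, 5 at an unadjusted p under 0.05), all 6 ductal (median 0.63), all 7 stellate (median 0.57) and all 7 endothelial markers (median 0.37) were positive, all 9 beta cell markers were negative (median -0.25), and 0 of them were called. Their part in the values of the mitochondrial genes was not tested. Leaving out mt-Tl1, the smallest p belonged to mt-Nd1 (0.46, SE 0.192, adjusted p = 0.431), mt-Nd2 (0.44, adjusted p = 0.467) and mt-Nd4 (0.29, adjusted p = 0.478). The values rest in part on labelled-bKO cytokines replicate 2 and labelled-bKO untreated replicate 1: without both, the difference was 0.20 for mt-Nd1 (adjusted p = 0.597), 0.15 for mt-Nd2 (adjusted p = 0.736) and 0.21 for mt-Nd4 (adjusted p = 0.687). Over all alternatives the adjusted p of mt-Nd1 lay between 0.209 and 0.708.

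The nuclear partners are given complex by complex, and no difference between nuclear and mitochondrial subunits was tested. Over all tested genes 28.8% were higher and 33.6% lower in labelled-bKO islets, and 26.8% were higher and 33.9% lower in control islets. Of 36 nuclear subunits of complex I, 11 were higher and 3 lower with cytokines in labelled-bKO islets, and 9 were higher and 7 lower in control islets, with medians of 0.08 and 0.07. The higher ones were 30.6% and 25% of the list, near the shares over all genes, and the lower ones were 8.33% and 19.4%. Ndufs1, the large iron-sulfur subunit of the electron entry arm, fell, with log2 fold changes of -0.56 and -0.46 in labelled-bKO and control islets. Ndufa2 rose by 0.41 in each genotype. Of 9 nuclear subunits of complex III, 7 were higher in labelled-bKO and 4 in control islets and none lower, with medians of 0.22 and 0.18. Uqcrq rose to 152 CPM with cytokines, against 91.0 CPM without them, in labelled-bKO islets (adjusted p = 7.91e-05), while mt-Cytb fell. Of 11 nuclear subunits of complex IV, 10 were higher and 1 lower in each genotype (90.9% and 9.09%), with medians of 0.49 and 0.42, and mt-Co1 was called higher in both as well, though not with library totals alone. Cox4i1 averaged 209 CPM with and 133 CPM without cytokines in labelled-bKO islets (log2 fold change 0.65, adjusted p = 7e-06). The member that fell was Ndufa4 (-0.72 and -0.96), first described as a complex I protein and now counted with complex IV. Of 16 nuclear genes of complex V, 10 were higher and 0 lower in labelled-bKO islets, and 8 were higher and 1 lower in control islets, with medians of 0.24 and 0.16. Atp5b, the catalytic beta subunit, rose by 0.50 and 0.52, and Atpif1, the inhibitor of the enzyme, fell by 0.24 in control islets. These lists were not tested as sets.

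**Figure D5:**
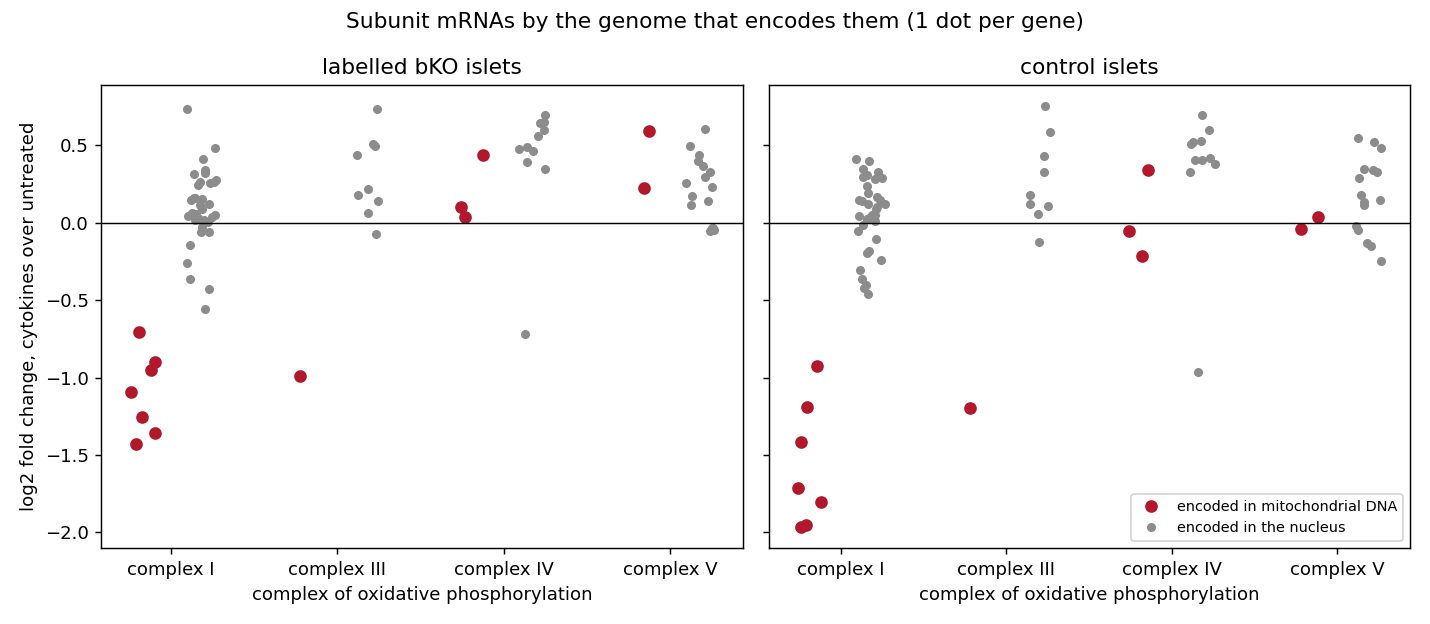
Log2 fold change, cytokines over untreated, of the subunit mRNAs of complexes I, III, IV and V in labelled-bKO (left) and control islets (right), 1 dot per gene; red dots are coded in mitochondrial DNA and grey dots in the nucleus. The 7 red dots of complex I lie at -0.71 or below in labelled-bKO and at -0.93 or below in control islets, and the nuclear subunits of complex I have medians of 0.08 and 0.07; the red dots of mt-Nd3, mt-Nd4l, mt-Co2, mt-Co3 and mt-Atp6 rest on counts that cannot be told from those of nuclear copies.

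Of the nuclear genes that act on mitochondrial RNA, Lrpprc changed most among those always named. Lrpprc binds mitochondrial mRNAs together with Slirp and keeps them stable and polyadenylated. It had 27.5, 31.1 and 27.0 CPM in labelled-bKO islets with cytokines, against 77.1, 77.5 and 78.7 CPM without them. It had 27.2, 29.6 and 29.3 CPM in control islets with cytokines, against 83.3, 77.8 and 76.0 CPM without them. The groups were far apart, and Lrpprc fell 2.72-fold in labelled-bKO (log2 fold change -1.45, SE 0.071, adjusted p = 2.02e-08) and 2.75-fold in control islets (-1.46, SE 0.0708, adjusted p = 1.88e-08). Slirp rose by 0.36 (adjusted p = 0.00214) and 0.29 (adjusted p = 0.0088). Whether the fall of Lrpprc bears on the mitochondrial mRNAs was not tested.

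In the list of 19 genes for stability, polyadenylation and decay that holds both, 9 were higher and 5 lower in labelled-bKO islets, and 7 were higher and 5 lower in control islets. These are 47.4% and 26.3% of the list in labelled-bKO and 36.8% and 26.3% in control islets, where 28.8% and 33.6%, and 26.8% and 33.9%, of all tested genes were higher and lower. Pnpt1, the phosphorylase of the decay complex, rose by 0.29 and 0.44. Rexo2, which clears short RNA remnants, rose by 0.47 and 0.50. Fastkd1, of a family of mitochondrial RNA-binding proteins, fell (-0.56 and -0.38). Mtpap, the poly(A) polymerase of mitochondria, rose by 0.37 in labelled-bKO islets (adjusted p = 0.0165) and had a log2 fold change of 0.27 in control islets (adjusted p = 0.0646).

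In the list of 23 genes for transcription and maintenance of mitochondrial DNA, 3 were higher and 8 lower in labelled-bKO islets, and 4 were higher and 7 lower in control islets, with medians of -0.15 and -0.12. The lower ones are 34.8% and 30.4% of the list, near the 33.6% and 33.9% over all tested genes, and the higher ones are 13.04% and 17.4%, where 28.8% and 26.8% of all were higher. Tfam, which packs the DNA and starts transcription, fell, with log2 fold changes of -0.25 (adjusted p = 0.00846) and -0.24 (adjusted p = 0.0102). Polrmt, the RNA polymerase, fell by 0.29 in labelled-bKO islets (adjusted p = 0.0222) and had a log2 fold change of -0.04 in control islets (adjusted p = 0.76). Mterf2, of a family that binds mitochondrial DNA, fell (-1.05 and -1.34), to means of 2.10 and 2.00 CPM. Ppargc1a, a coactivator of genes for mitochondria, rose by 1.02 and 1.47 and Esrra, a nuclear receptor it works with, by 0.84 and 0.89.

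Of 24 genes for processing and modification of mitochondrial RNA, 8 were higher and 8 lower in labelled-bKO islets, and 10 were higher and 7 lower in control islets. In labelled-bKO islets this was 33.3% in each direction, near the shares over all genes. In control islets 41.7% of the list were higher and 29.2% lower, where 26.8% and 33.9% of all tested genes were. Trmt61b, which methylates mitochondrial tRNAs and the large rRNA, fell (-1.32 and -1.21). Trit1 and Nsun2, which modify tRNAs of mitochondria and cytosol, rose by 0.84 and 1.01 and by 0.79 and 0.56. Of 22 carriers, import factors and chaperones of mitochondria, 17 were higher and 1 lower in labelled-bKO islets, and 14 were higher and 2 lower in control islets. The higher ones are 77.3% and 63.6% of the list, where 28.8% and 26.8% of all tested genes were higher, and the lower ones are 4.55% and 9.09%, where 33.6% and 33.9% of all were lower. Hspa9, the chaperone that pulls proteins into the matrix, rose by 0.94 and 1.02.

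Markers of other cell types moved with cytokines as well. Among all tested genes, 28.8% were called higher and 33.6% lower in labelled-bKO islets, and 26.8% and 33.9% in control islets. All 7 endothelial markers fell in both genotypes, with sums of 162 to 209 CPM with and 650.4 to 674 CPM without cytokines in labelled-bKO islets, and 125 to 189 CPM with and 588 to 758 CPM without them in control islets. All 7 macrophage markers rose in both, with sums of 468 to 603 CPM with and 153 to 213 CPM without cytokines in labelled-bKO islets, and 450.2 to 553 CPM with and 159 to 185 CPM without them in control islets. Of 9 acinar markers, 4 fell in labelled-bKO and 9 in control islets, with sums of 783 to 2989 CPM with and 2119 to 3474 CPM without cytokines in labelled-bKO islets, and 925 to 1507 CPM with and 4690.1 to 7607 CPM without them in control islets. Of 9 beta cell, 5 alpha cell and 4 delta and PP cell markers, 6, 5 and 3 fell in each genotype. The sum of the beta cell markers was higher with cytokines in every control library, at 144608 to 177637 CPM with and 124962 to 136770 CPM without cytokines, and overlapped in labelled-bKO islets, at 90079 to 162469 CPM with and 124419 to 135767 CPM without them. Such a sum hides the change of single markers. The median log2 fold change of the 9 was -2.61 in labelled-bKO and -2.17 in control islets, and 0 were called higher. Sums of the alpha cell markers were 6280 to 7624 CPM with and 15497 to 18987 CPM without cytokines in labelled-bKO islets, and 8406 to 11111 CPM with and 17791 to 22837 CPM without them in control islets. Of 7 stellate cell markers 5 rose in labelled-bKO and 1 in control islets. Of 6 ductal cell markers 2 rose in each genotype and 3 fell in control islets. The ones that rose are 33.3% of the list, near the shares over all genes. No marker on these 8 lists was at 0 in any group. Of 7 T and B cell markers 4 could be tested, of which 1 rose and 2 fell in each genotype, with sums of 10.1 to 17.5 CPM with and 6.11 to 8.28 CPM without cytokines in labelled-bKO islets, and 9.27 to 12.96 CPM with and 6.89 to 8.04 CPM without them in control islets, where 1 marker was at 0 with cytokines. Of 4 red blood cell markers 2 could be tested and had lower counts with cytokines in both genotypes. Their sums were 0.0235 to 0.0671 CPM with cytokines, with 2 markers at 0, and 0.382 to 1.04 CPM without them in labelled-bKO islets, and 0.0602 to 0.0995 CPM with cytokines, with 1 marker at 0, and 0.251 to 0.811 CPM without them in control islets. Their part in the changes of the mitochondrial genes was not tested.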

How the data were processed

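RNA of mouse islets was sequenced in 12 libraries, 3 in each of 4 groups. The authors deposited raw counts per gene for 55536 genes, and these counts were used as deposited. Per the submitters' processing notes, the genome build was GRCm38, and the tools named are STAR 2.5.2a, featureCounts 1.6.2, cutadapt 1.16, DESeq2 1.30.0 and FastQC 0.11.7, with no order or role. How multi-mapping reads, strand and overlapping genes were treated, the annotation release and the read length are not given there. This bears on any gene with a nuclear copy, since reads that fit several places may be dropped or assigned to one of them.

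Genes were kept by edgeR's filterByExpr, which left 19800. After TMM scaling, 1 fit over all 4 groups (glmQLFit and glmQLFTest in edgeR 4.0.16, R 4.3.3) gave all comparisons, with Benjamini-Hochberg adjustment over all of them at 0.05. The fit was checked on simulated counts. Alternatives included DESeq2 1.42.0, limma 3.58.1 (voom), other scalings and filters, a replicate block and each library left out. Library totals were 47064061 to 107515565 counts. Replicates of a group differed beyond counting noise (chi-square per degree of freedom of at least 15).

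Gene positions, lengths and transcript sequences came from GENCODE M21 (GRCm38), and shared sequence was measured over windows of 50 bases. The members and lists were chosen with earlier results of these data known. All 13 mRNAs and 2 rRNAs were named in both cytokine comparisons, and elsewhere the 4 genes with the smallest p. Up to 4 nuclear genes per list and direction with the smallest adjusted p could be named, beside Polrmt, Tfam, Lrpprc, Slirp, Pnpt1 and Mtpap. Marker lists cover beta, alpha, delta and PP, acinar, ductal, endothelial, macrophage, stellate, T and B, and red blood cells.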

Additional observations from a re-analysis of the deposited data

Results flagged for a closer look

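mt-Ts1, a serine tRNA gene with too few counts to be tested, had 7 counts in labelled-bKO untreated replicate 1. This is above its count in all control libraries, where it had 1 to 5 counts. In CPM the gap was small, at 0.107 in this library against up to 0.100 in control libraries. The same library stood apart in mt-Atp8, with 6 counts, and in mt-Rnr2. Whether these values have a common source was not tested.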

How the results depend on the processing

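In the 24 alternative analyses no tested value that was called turned its direction. The number of mitochondrial genes higher with cytokines was 3 and became 1 with library totals alone in both genotypes. Leaving out 1 library gave 1 to 3 higher genes in control islets, with 1 without control untreated replicate 3 and 1 without control cytokines replicate 2. The calls of mt-Nd1, mt-Nd2, mt-Nd4, mt-Nd4l, mt-Nd5, mt-Nd6, mt-Cytb, mt-Rnr1 and mt-Tw held in all 24 in both genotypes, with log2 fold changes for mt-Nd1 between -1.48 and -1.16 in labelled-bKO and between -1.94 and -1.62 in control islets. mt-Nd3 in labelled-bKO islets lost its call in 6 alternatives, with adjusted p up to 0.195. mt-Tt in labelled-bKO islets gained one without cytokines replicate 2 (-2.11, adjusted p = 0.0194, edgeR). With shares taken from scaled CPM, the mitochondrial genes held 1.03% in cytokine-treated labelled-bKO, 1.34% in untreated labelled-bKO, 1.09% in cytokine-treated control and 1.61% in untreated control libraries. Without the 2 libraries that stood apart, an analysis added after seeing the data, mt-Co1 in labelled-bKO islets was 0.52 (adjusted p = 0.00596, edgeR), mt-Nd3 there was -1.65, and no call in control islets changed.

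Replicates with the same number did not move together (correlations of -0.0776, 0.0214 and 0.101 in labelled-bKO and -0.164, 0.0572 and 0.00442 in control islets). With the replicate number as a block, 3 genes were higher and 10 lower in labelled-bKO and 2 were higher and 10 lower in control islets, where mt-Rnr2 was 0.50 (adjusted p = 0.0835, edgeR). Values of tRNA genes, mt-Nd3, mt-Nd4l and mt-Atp8 are limited by their low counts.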
